A study of Mus musculus with 2 samples.

Results

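The genes Ctsa, Ctsb, Ctsc, Ctsd, Ctse, Ctsh, Ctsl, Ctss, Ctsz and Lgmn, which encode 9 cathepsins and legumain, were described in Langerhans cells of Il34LacZ/LacZ and Il34+/LacZ mice. They are 10 of the 19937 genes that the array table names with a single symbol, and were taken by name as endolysosomal proteases of antigen processing. Each was read by 1 probe set, and all 10 matched the RefSeq gene of the same symbol. The Il34LacZ/LacZ animals carry a LacZ allele on both copies of Il34, and the Il34+/LacZ animals carry it on 1 copy, so neither genotype is wild type. The product of Il34 is made by keratinocytes and binds the CSF1 receptor. Animals of both genotypes were 8 to 12 weeks old and received ultraviolet light for 30 min, and cells positive for Langerin and Epcam were sorted 21 days later. Each genotype was measured on 1 array, from 2 ng of total RNA. The labels do not say how many animals gave the RNA. The comparison asks how Langerhans cells found after ultraviolet exposure differ in animals that lack IL-34.

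Cathepsins and legumain are proteases of endosomes and lysosomes, made as inactive precursors that mature at acid pH. In antigen-presenting cells they cut internalised proteins into peptides and remove the invariant chain, the placeholder in the groove of MHC class II molecules. Cathepsin S makes the last cuts of the invariant chain in dendritic cells and B cells, and cathepsin L makes them in cells such as the thymic epithelium of mice. Most members are cysteine proteases. Cathepsins D and E are aspartic proteases, and cathepsin A is a serine carboxypeptidase.

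The values are deposited intensities of a whole-transcript array on a linear scale. Differences are log2(intensity + 16) of Il34LacZ/LacZ minus that of Il34+/LacZ, and folds are on this scale. With n = 1 array per genotype no value has a replicate error, and no test between genotypes was possible. For 614 genes, several single-symbol probe sets reached the floor, defined below, on at least 1 array. Within a gene, their differences scattered with an SD of 0.63 log2 units, or 1.55-fold. Over the levels of the members other than Ctse it was 0.57 (168 genes). The value of 0.63 is called the probe set SD below, and disagreement between probe sets is the only kind of error the file allows. The floor, an intensity of 48.7, is the median of all values of both arrays, and 12843 genes reached it on at least 1 array. The median intensity of an array was 51.9 in Il34LacZ/LacZ and 45.2 in Il34+/LacZ, while the 75th percentile was 116.4 and 142.7 in the same order of genotypes. Well-expressed genes therefore read lower in Il34LacZ/LacZ as a rule, and each member is set beside the 500 genes nearest to it in mean level. In a sorted bulk sample, fewer cells of a type and less RNA per cell cannot be told apart.

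Of the sorting markers, Cd207, which encodes Langerin, read 1852.0 in Il34LacZ/LacZ and 3153.0 in Il34+/LacZ, and Epcam read 707.7 and 632.9 in the same order. All 9 Langerhans cell markers were above the floor on both arrays, with a summed intensity of 15246 in Il34LacZ/LacZ and 21135 in Il34+/LacZ. Markers of other cells were present too and differed between the arrays. The 12 keratinocyte markers summed to 888.1 in Il34LacZ/LacZ and 5036 in Il34+/LacZ, with 9 above the floor on both arrays, and Krt14, a basal keratin, read 58.6 and 787.4. The 11 macrophage markers summed to 4550 in Il34LacZ/LacZ and 2977 in Il34+/LacZ, with 9 above the floor on both arrays and Cd163 and Mertk below it on both. Of those 9, 8 read higher in Il34LacZ/LacZ, as did 5570 of the 12843 genes at or above the floor. Pf4 was highest of all, at 975.3 in Il34LacZ/LacZ and 148.1 in Il34+/LacZ, and made the largest single part of the higher sum. Mrc1 and Cd68 differed by only 0.04 and 0.07 on the log2 scale. The 1 of the 9 that read lower was Adgre1, at 144.6 in Il34LacZ/LacZ and 281.0 in Il34+/LacZ. The 10 measured of 11 monocyte and neutrophil markers summed to 2060 in Il34LacZ/LacZ and 1042 in Il34+/LacZ, with 6 above the floor on both arrays. S100a8 and S100a9 carried the higher sum: the other 8 summed to 808.9 in Il34LacZ/LacZ and 867.1 in Il34+/LacZ. Of those 8, 4 read higher in Il34LacZ/LacZ and 3 lower, counting genes that reached the floor on at least 1 array. They ran from Mmp9, at 190.9 in Il34LacZ/LacZ and 380.2 in Il34+/LacZ, to Clec4e, at 218.8 and 81.7. The 5 measured of 7 T cell markers summed to 5667 in Il34LacZ/LacZ and 6395 in Il34+/LacZ, all above the floor on both arrays. Of 6 dermal dendritic cell markers 3 were above the floor, while Xcr1, Clec9a and Clec10a were below it on both arrays.

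All 10 members were above the floor on both arrays, and their differences spread over a range of 1.86 on the log2 scale, between Ctsa at -1.10 and Ctsl at 0.76. 8 of the 10 read lower in Il34LacZ/LacZ and 2 higher. Among all genes at or above the floor 7227 of 12843 read lower, and among genes of the members' levels 4001 of 5000. The median difference of the members was -0.43, against -0.16 over all genes at or above the floor and -0.55 over genes of the members' levels. 4 members, Ctsa, Ctsb, Ctsh and Lgmn, were at least 1.5-fold lower, where 29.8% of all genes and 47.8% of genes of the members' levels were. Only Ctsl was at least 1.5-fold higher, where 15.9% of all genes and 4.92% of genes of the members' levels were. The count of lower members is thus near the background of their level. With a smooth trend of the difference on level removed, the members had a median of 0.05. Ctsl and Ctsd were then past 1.5-fold higher, 2 of 10, beside 13.9% of all genes and 12.9% of genes of the members' levels. In the other direction 0 of 10 passed 1.5-fold, beside 18.4% of all genes and 14.2% of genes of those levels. The split depended on the scaling: it was 6 lower and 0 higher with each array centred on its median, 1 and 1 centred on the 75th percentile, and 0 and 1 after quantile normalization. These scalings moved the median of all genes to -0.36, 0.16 and 0.03.

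**Figure D1:**
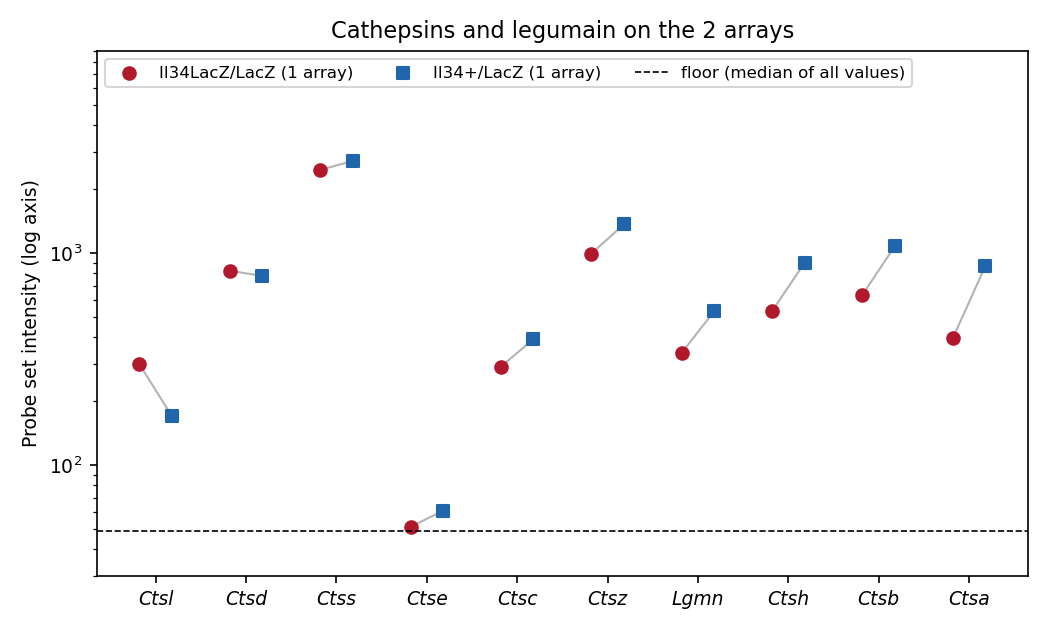
Intensity (log axis) of the 10 genes in Il34LacZ/LacZ (red circles) and Il34+/LacZ (blue squares), 1 array each, ordered by difference. Ctsl and Ctsd read higher in Il34LacZ/LacZ and the other 8 lower, and the points of Ctse lie just above the dashed floor of 48.7.

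Promoters are shown for 3 members: Ctsl, the highest of them, and Ctsa and Ctsd, which lie at different places in this range but share the element through which lysosomal genes are known to be controlled by the factor TFEB. The RefSeq promoter table of build GRCm38.p6, which gives 250 bases before to 50 after a gene start, held 9 promoters of 7 members: Ctsa, Ctsc, Ctsd, Ctsl, Ctss, Ctsz and Lgmn. The core of that element, TCACGTGA, reads the same on both strands and contains the E-box CACGTG. It was found in the promoters of Ctsa and Ctsd, and in 0.97% of all 32851 promoters. The E-box, found in 7.15% of all promoters including those with the core, was also found for Ctsl and Lgmn, without the core. The only listed window of Ctsl lies wholly inside the RefSeq span of the gene, chr13:64361890-64370772. The bases before the outer end of Ctsl were therefore not searched. The windows of Ctsa and Lgmn that hold a motif also lie inside the gene span, and their other listed windows, at the outer end, hold none. In the sequences, written 5′ to 3′, the capitals mark these motifs. The letters of a motif do not show that a factor binds there.
Ctsa (chr2:164833523-164833822, + strand): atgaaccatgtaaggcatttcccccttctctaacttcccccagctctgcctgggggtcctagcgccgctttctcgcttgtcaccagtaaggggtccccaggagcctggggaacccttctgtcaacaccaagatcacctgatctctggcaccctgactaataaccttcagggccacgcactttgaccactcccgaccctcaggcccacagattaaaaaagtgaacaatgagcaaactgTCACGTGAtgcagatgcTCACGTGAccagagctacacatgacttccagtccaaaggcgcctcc
Ctsd (chr7:142387778-142388077, - strand): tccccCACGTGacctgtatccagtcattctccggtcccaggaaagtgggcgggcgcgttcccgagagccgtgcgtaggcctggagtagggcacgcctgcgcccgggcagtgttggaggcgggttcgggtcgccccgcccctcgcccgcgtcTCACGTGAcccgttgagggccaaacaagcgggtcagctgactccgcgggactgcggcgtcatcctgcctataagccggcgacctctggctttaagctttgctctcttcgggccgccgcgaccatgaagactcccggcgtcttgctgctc
Ctsl (chr13:64370471-64370770, - strand): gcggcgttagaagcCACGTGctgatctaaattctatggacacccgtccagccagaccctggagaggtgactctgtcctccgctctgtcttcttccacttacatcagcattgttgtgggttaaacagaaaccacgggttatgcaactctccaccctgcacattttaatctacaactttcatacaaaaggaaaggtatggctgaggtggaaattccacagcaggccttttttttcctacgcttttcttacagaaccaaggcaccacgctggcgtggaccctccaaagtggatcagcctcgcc
Ctsa holds the core 2 times, starting 13 bases before its second listed start and at base 5 when that start is counted as base 1. Its first listed start holds none. Ctsd holds it 1 time, starting 99 bases before the start. Of the members with a listed promoter, Ctsa had the most negative difference and Ctsd, at 0.08, the next highest after Ctsl, so the pair that shares the core differed by 1.18 on the log2 scale. Among the 209 genes at or above the floor with the core in a promoter, 42.6% read lower by 1.5-fold or more and 5.74% higher by as much, and their median was -0.45. The values for the 9994 genes with a promoter that lacks it were 30.4%, 15.4% and -0.18. With the trend removed the medians were -0.12 and 0.02.

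Among the proteases of the invariant chain, Ctsl read higher in Il34LacZ/LacZ and Ctss differed little. Ctsl, the cysteine protease cathepsin L, read 299.0 in Il34LacZ/LacZ and 169.9 in Il34+/LacZ, 1.69-fold higher. This difference of 0.76 exceeded the probe set SD, and 480 of the 500 genes of its level had a lower one. With the trend removed it was 1.29, and it stayed above 0 in each of the 10 alternative settings, the smallest being 0.58. Among those settings, the probe set rule and the changes of floor could not alter Ctsl, which has 1 probe set. Ctss, cathepsin S, read 2466 in Il34LacZ/LacZ and 2718 in Il34+/LacZ, a difference of -0.14 that lies within the probe set SD. 401 of the 500 genes nearest to Ctss had a lower difference, though few genes are that bright and these reach down to an intensity of 788.4. Its difference was 0.33 with the trend removed. The difference of Ctsl lay 0.90 above that of Ctss as deposited and 0.97 above it with the trend removed, which is nearly equal at the levels of both genes. The probe set SD describes a single difference, and a gap between 2 of them has a larger error. Lgmn, the asparaginyl endopeptidase legumain, which also opens the invariant chain and activates other cathepsins, read 338.1 in Il34LacZ/LacZ and 531.3 in Il34+/LacZ. It was 1.55-fold lower, a difference of -0.63 that equals the probe set SD to 2 decimals, exceeds the SD of 0.57 at the members' levels, and became -0.01 with the trend removed. Cells other than Langerhans cells use Ctsl as well, among them macrophages and keratinocytes. Their summed markers moved in opposite directions, macrophage markers to 4550 against 2977 and keratinocyte markers to 888.1 against 5036, Il34LacZ/LacZ against Il34+/LacZ, and their part in the Ctsl reading was not tested.

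Of the aspartic proteases, Ctsd was the member next to Ctsl. Ctsd, cathepsin D, a general protease of lysosomes, read 823.7 in Il34LacZ/LacZ and 779.6 in Il34+/LacZ, a difference of 0.08 that lies within the probe set SD. Genes of its level had a median of -0.63, and 441 of 500 lay lower than Ctsd. With the trend removed it was 0.68 higher, just past the probe set SD. Ctse, cathepsin E of endosomes, read 51.0 in Il34LacZ/LacZ and 60.7 in Il34+/LacZ, which is close to the floor on both arrays. Its difference of -0.20 lies within the probe set SD, and dim genes like it had a median of 0.32, with 102 of 500 below Ctse.

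The exopeptidases, which trim proteins from their ends, included the members furthest down. Ctsa, cathepsin A, a carboxypeptidase that also protects lysosomal neuraminidase and beta-galactosidase, read 396.5 in Il34LacZ/LacZ and 869.9 in Il34+/LacZ. It was 2.15-fold lower, the only member past 2-fold, where 13.1% of all genes and 20.1% of genes of the members' levels were at least 2-fold lower. Its difference of -1.10 exceeded the probe set SD, but 79 of the 500 genes of its level lay lower still, and with the trend removed it was -0.49, within the SD. Ctsb, cathepsin B, an abundant cysteine protease that also removes dipeptides, read 635.5 in Il34LacZ/LacZ and 1080 in Il34+/LacZ, 1.68-fold lower. Ctsh, cathepsin H, an aminopeptidase, read 531.2 in Il34LacZ/LacZ and 900.6 in Il34+/LacZ, 1.68-fold lower. Both lay close to genes of their level, with 184 of 500 below Ctsb and 199 of 500 below Ctsh, and their differences became -0.15 and -0.14 with the trend removed. Ctsz, the carboxypeptidase cathepsin Z, read 993.2 in Il34LacZ/LacZ and 1363 in Il34+/LacZ, a difference of -0.45. Ctsc, cathepsin C, a dipeptidyl peptidase that activates granule serine proteases, read 290.9 in Il34LacZ/LacZ and 391.9 in Il34+/LacZ, a difference of -0.41. The differences of Ctsz and Ctsc lie within the probe set SD and became 0.11 and 0.20 with the trend removed.

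**Figure D2:**
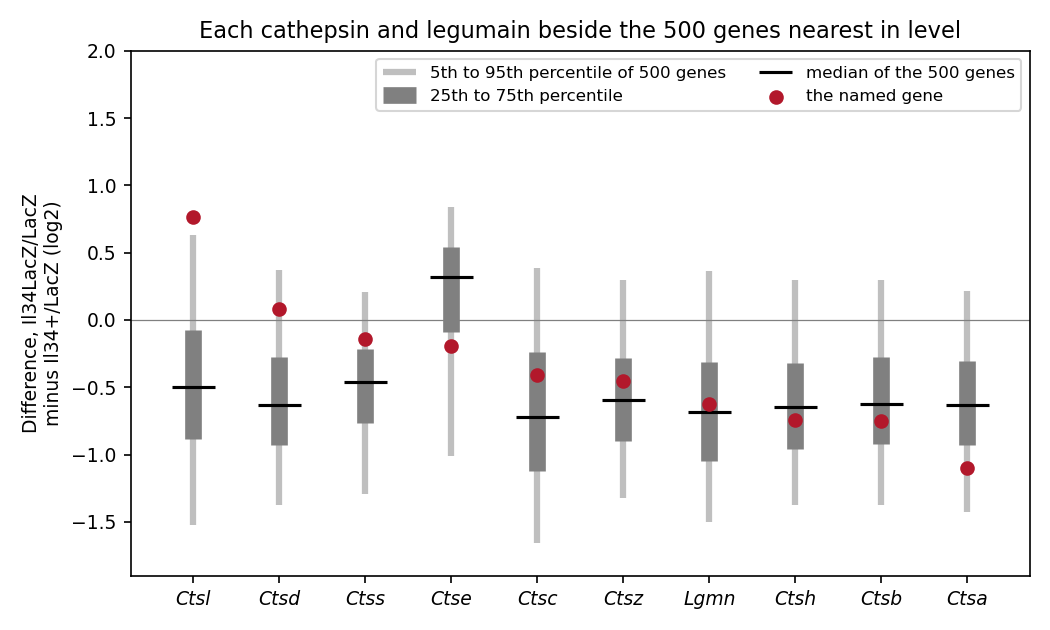
Difference on the log2 scale, Il34LacZ/LacZ minus Il34+/LacZ, of each of the 10 genes (red) beside the 500 genes nearest in level (black line, median; thick bar, 25th to 75th percentile; thin bar, 5th to 95th percentile). Only Ctsl lies outside the thin bar; Ctsa, at -1.10, and Ctsd, at 0.08, lie inside it but outside the thick bar, as do Ctss and Ctse.

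The remaining members of the cathepsin family were mostly near or below the floor, and the pair furthest apart, Ctsk and Ctsw, lay in opposite directions. Of 14 other cathepsin genes, 12 had a probe set of their own and 4 were above the floor on both arrays. Ctsk, cathepsin K, the collagen-cutting protease of osteoclasts and fibroblasts, read 139.1 in Il34LacZ/LacZ and 51.7 in Il34+/LacZ, 2.29-fold higher. 493 of the 500 genes of its level had a lower difference, and its difference was 1.19 as deposited. Ctsk has 1 gene between it and Ctss in RefSeq's order of starts, and Ctss differed by only -0.14. The 10 fibroblast and mast cell markers summed to 508.9 in Il34LacZ/LacZ and 368.0 in Il34+/LacZ, with 3 of 10, the collagen genes Col1a1, Col1a2 and Col3a1, above the floor, and their part in the Ctsk reading was not tested. Ctsw, cathepsin W of cytotoxic lymphocytes, read 220.4 in Il34LacZ/LacZ and 671.4 in Il34+/LacZ, 2.91-fold lower, with 27 of the 500 genes of its level lower still. Beside it the 5 measured T cell markers had a median difference of -0.35, or 0.15 with the trend removed, and ran from -0.55 for Cd247 to 0.13 for Cd3g. The part of lymphocytes in the Ctsw reading was not tested. Ctsf and Ctso differed by 0.06 and -0.34, within the probe set SD. Ctsll3, which lies on chromosome 13 as Ctsl does, read 50.1 in Il34LacZ/LacZ and 23.3 in Il34+/LacZ. It was just above the floor on the Il34LacZ/LacZ array and below it on the other, so at least 1.02-fold higher. Ctsg, of neutrophil and mast cell granules, read 15.2 in Il34LacZ/LacZ and 13.6 in Il34+/LacZ, below the floor on both arrays. Also below it on both were the 6 placental cathepsin genes with a probe set of their own, which lie on chromosome 13 with Ctsl.

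**Figure D3:**
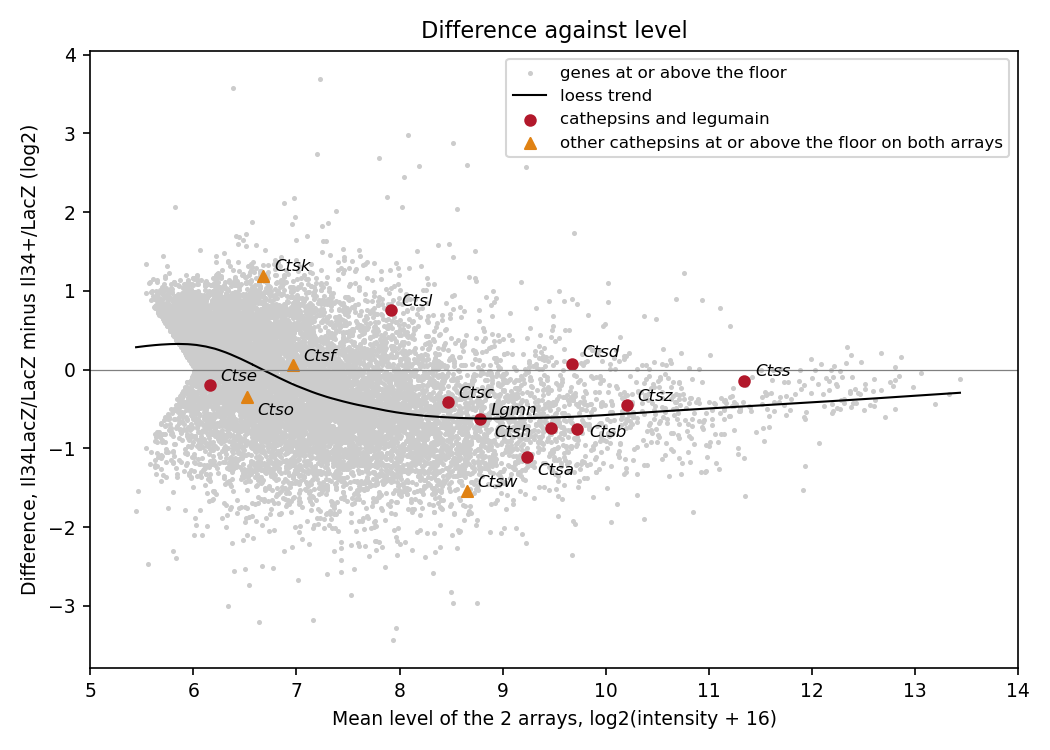
Difference on the log2 scale, Il34LacZ/LacZ minus Il34+/LacZ, against the mean level of the 2 arrays, for 12843 genes (grey), the 10 cathepsin and legumain genes (red) and 4 other cathepsins (orange triangles), with the loess trend (black). Ctsl and Ctsk lie above the trend and Ctsw and Ctsa below it.

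Among inhibitors of cysteine cathepsins, the cystatins Cst3 and Cstb differed little, and the furthest apart were Stfa3, Serpinb6b and Ctla2b. Of 16 inhibitor genes, 13 had a probe set of their own and 8 reached the floor on at least 1 array. Of the 8, 2 read lower by 1.5-fold or more, beside 29.8% of all genes. Ctla2b read higher by as much, and so did Cst6 as measured, but not against the floor, beside 15.9% of all genes. The median of the 8 was -0.30, and 0.22 with the trend removed. Cst3, the secreted cystatin C, read 5362 in Il34LacZ/LacZ and 6378 in Il34+/LacZ, a difference of -0.25. Cstb, the intracellular stefin B, read 704.1 in Il34LacZ/LacZ and 900.5 in Il34+/LacZ, a difference of -0.35. Both differences lie within the probe set SD. Serpinb6b, a serpin of unclear cathepsin specificity, was 3.18-fold lower at 57.2 in Il34LacZ/LacZ and 216.6 in Il34+/LacZ. Ctla2b, which resembles the propeptide of cathepsin L, was 1.96-fold higher at 212.8 in Il34LacZ/LacZ and 100.5 in Il34+/LacZ, while its close relative Ctla2a read 565.1 and 590.5, and reads of such near copies are uncertain. Stfa3, whose probes may also read near-identical stefin genes, was below the floor in Il34LacZ/LacZ and 116.5 in Il34+/LacZ, at least 2.05-fold lower. Cst6, cystatin M/E of the epidermis, was at least 1.23-fold higher, below the floor in Il34+/LacZ.

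Genes of class II loading, which the cathepsins serve, lay about where genes of their level do, except Ciita. Of 11 genes 9 had a probe set of their own. Of these, 3 read lower by 1.5-fold or more and 0 higher by as much, against 29.8% and 15.9% of all genes. Their median was -0.47, and -0.01 with the trend removed. Cd74, the invariant chain that Ctss cuts, read 6837 in Il34LacZ/LacZ and 7514 in Il34+/LacZ, a difference of -0.14. Of the 500 nearest genes, 400 had a lower difference than Cd74, 425 than H2-Ab1, 389 than H2-Aa and 244 than H2-Eb1. Few genes are that bright, and the 500 reach down to an intensity of 793.6. Ciita, the regulator of class II genes, read 328.6 in Il34LacZ/LacZ and 1011 in Il34+/LacZ, 2.98-fold lower, with 12 of the 500 genes of its level lower still. Ifi30, the thiol reductase that unfolds antigens for the cathepsins, read 1507 in Il34LacZ/LacZ and 2542 in Il34+/LacZ, 1.68-fold lower, or -0.25 with the trend removed. H2-Oa and H2-DMa, chains of the loading regulators, differed by -0.62 and -0.52, and by -0.01 and -0.08 with the trend removed.

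The other lysosomal peptidases read lower in Il34LacZ/LacZ by more than most cathepsins. All 7 had a negative difference, as did 7227 of the 12843 genes at or above the floor. Of the 7, 5 read lower by 1.5-fold or more both as deposited and with the trend removed. The shares of all genes were 29.8% as deposited and 18.4% with the trend removed. The median was -1.25 as deposited and -0.79 with the trend removed, against -0.16 and 0.03 over all genes. Cpq, a carboxypeptidase, and Rnpep, an aminopeptidase better known outside the lysosome, were below the floor in Il34LacZ/LacZ, at least 1.82-fold and 1.93-fold lower, and with both at these bounds the median was -0.95. Dpp7, a dipeptidyl peptidase, read 63.9 in Il34LacZ/LacZ and 212.6 in Il34+/LacZ, 2.86-fold lower. Napsa, the aspartic protease napsin A, read 533.6 in Il34LacZ/LacZ and 1411 in Il34+/LacZ, 2.60-fold lower, with 24 of the 500 genes of its level lower still. Scpep1, a serine carboxypeptidase of the same family as Ctsa, read 213.6 in Il34LacZ/LacZ and 567.6 in Il34+/LacZ, 2.54-fold lower. Tpp1, a tripeptidyl peptidase, and Prcp, a carboxypeptidase, differed by -0.51 and -0.49 and by -0.06 and 0.13 with the trend removed. Whether these peptidases and the cathepsins differ as groups was not tested.

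Genes that sort enzymes to lysosomes and regulate lysosomes mostly read lower as deposited. With the trend removed they lay nearer to other genes, though most were still below 0. Of 11 measured sorting genes, 7 read lower by 1.5-fold or more and 0 higher by as much, against 29.8% and 15.9% of all genes. The median was -0.81. With the trend removed 2 were lower by that measure, against 18.4% of all genes, and the median was -0.44. Below 0 were still 10 of the 11, as were 6158 of the 12843 genes at or above the floor. Gga3, an adaptor of mannose 6-phosphate receptors, was 2.28-fold lower at 177.5 in Il34LacZ/LacZ and 425.5 in Il34+/LacZ, and Scarb2, the carrier of glucocerebrosidase, was 2.19-fold lower. Nagpa and Gnptg, which take part in making the mannose 6-phosphate tag of cathepsins, were 2.12-fold and 2.08-fold lower. Of 10 lysosome regulators 8 reached the floor; 6 read lower by 1.5-fold or more and 0 higher by as much, against 29.8% and 15.9% of all genes. With the trend removed 1 was lower and 1 higher by as much, against 18.4% and 13.9% of all genes, and the median of -0.69 became -0.20. Below 0 were still 7 of the 8 regulators. Tfeb, the factor of the TCACGTGA element, read 127.4 in Il34LacZ/LacZ and 214.8 in Il34+/LacZ, 1.61-fold lower, and -0.27 with the trend removed. Its relative Tfe3 was 1.99-fold lower, or -0.53 with the trend removed. Rragc, a GTPase that ties TFEB to the lysosome, was 2.95-fold lower at 172.9 in Il34LacZ/LacZ and 541.8 in Il34+/LacZ, whereas the related GTPase gene Rraga read 277.6 and 257.3.

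**Figure D4:**
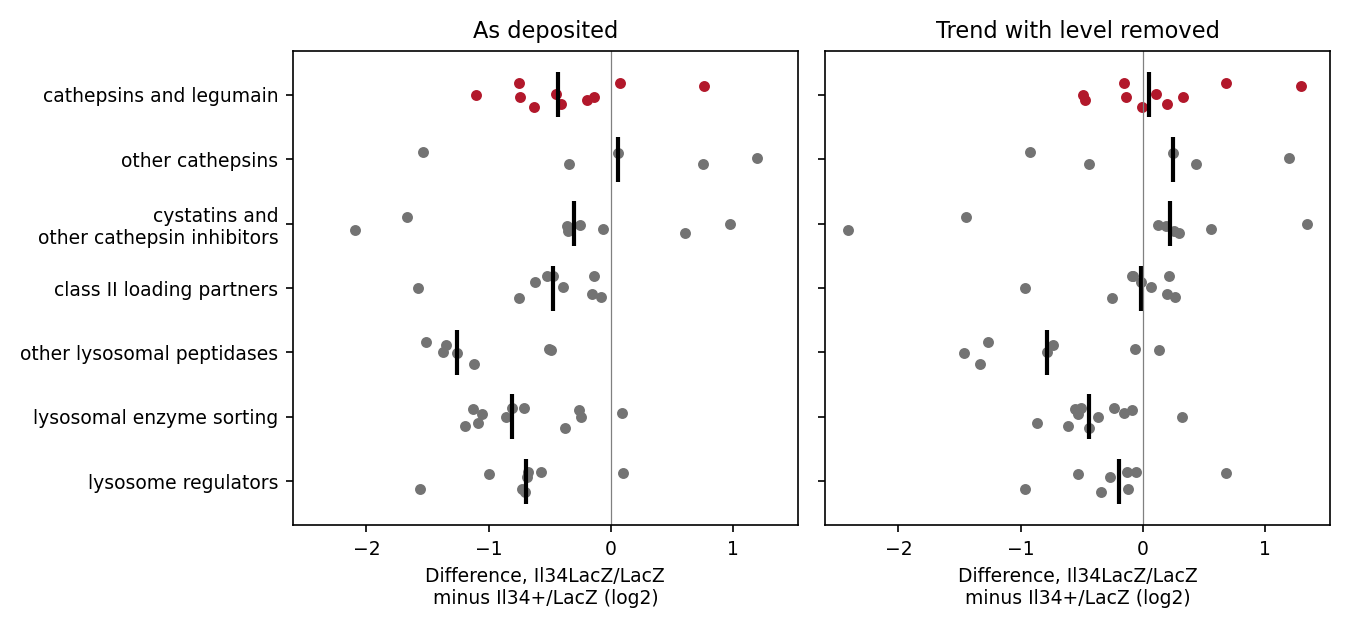
Difference on the log2 scale, Il34LacZ/LacZ minus Il34+/LacZ, of the genes of each list that reached the floor (points; black bars, medians), as deposited and with the trend removed. The cathepsins and legumain have medians of -0.43 and 0.05, and the other lysosomal peptidases of -1.25 and -0.79.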

How the data were processed

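The deposited table holds a single linear intensity for each probe set on each array, as processed by the authors. How probes were summarised, background removed and arrays scaled is not given in the sources used. Of 34760 probe sets, the platform annotation gave 21640 a single symbol, 1321 several and 11799 none; only the first were named, and a gene was represented by its probe set with the highest mean log2 level. Precision is limited by the single array per genotype.

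Differences were taken as log2(intensity + 16), Il34LacZ/LacZ minus Il34+/LacZ. A loess trend of the difference on mean level (fraction 0.3), fitted to the single-symbol probe sets, was removed as an alternative. Same-level genes were the 500 nearest in mean log2 level among genes at or above the floor; percentages for the members' levels pool the 10 sets of 500, so a gene can count more than once. A fold with 1 array under the floor of 48.7 takes the floor as that array's value, and is a lower bound.

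All 10 members are named, and of each other list up to 4 genes with the largest difference plus a few fixed ones. Cpq, Tpp1, Prcp, Ctla2a, Rraga, Mmp9, Mrc1, Cd68, H2-Aa, H2-Ab1, H2-Eb1 and the markers named as below the floor were named after their values were seen. Members and lists were chosen with earlier results of these data known. With 1 array per genotype no gene could be matched by pattern. The trend step was tested only on simulated data, with noise smaller than the probe set SD and drawn around the trend fitted to these arrays. Python 3.11.15, numpy 2.4.6, pandas 2.3.3, statsmodels 0.14.6 and matplotlib 3.10.9 were used.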

Additional observations from a re-analysis of the deposited data

How the results depend on the processing

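Of the 10 members, Ctsa, Ctsb, Ctsh, Ctsl and Lgmn kept the sign of their difference in each of the 10 alternative settings, which changed the pseudocount, the scaling, the trend, the probe set rule or the floor. The range of Lgmn, -0.82 to -0.01, nearly reached 0. The probe set rule and the raising or removal of the floor could not alter a member's value, since each has 1 probe set. A higher floor could only drop a member. Ctsc, Ctsz, Ctss, Ctsd and Ctse changed sign in at least 1 setting, within ranges of -0.60 to 0.20, -0.65 to 0.14, -0.34 to 0.42, -0.12 to 0.69 and -0.48 to 0.03. The median of the members ran from -0.62 to 0.06; it turned to 0.051 and 0.055 with the trend removed at smoothing fractions of 0.3 and 0.5, which by construction centre the genes of any level near 0. The count of members at least 1.5-fold lower, 4 as reported, was 1 with each array centred on its 75th percentile and 0 after quantile normalization and with either trend removed. The count at least 1.5-fold higher, 1 as reported, was 0 with each array centred on its median and 2 with either trend removed. With the floor at the 75th percentile of all values, 126.9, 9 members were left and Ctse was lost. With 200 or 1000 nearest genes, 0 of 20 shares of same-level genes moved by over 10 percentage points. No paired analysis was possible because each genotype has 1 array. With no replicates none could be left out, and dim genes such as Ctse, near the floor, have the least reliable readings.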

Other observations

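The lysosomal partners of Ctsa and Ctsd, chosen after the members' values were seen, did not move as a block with them. Glb1, the beta-galactosidase that cathepsin A protects, read 109.2 in Il34LacZ/LacZ and 235.6 in Il34+/LacZ, 2.01-fold lower, beside Ctsa at 2.15-fold lower. Neu1, the neuraminidase of the same complex, read 147.9 in Il34LacZ/LacZ and 124.1 in Il34+/LacZ, a difference of 0.23. Galns, a sulfatase found with them, differed by -0.29, and both of these differences lie within the probe set SD of 0.63. Psap, the saposin precursor that associates with procathepsin D, read 1144 in Il34LacZ/LacZ and 1836 in Il34+/LacZ, 1.60-fold lower, while Ctsd differed by 0.08. With the trend removed Glb1 was at -0.60, Neu1 at 0.55, Galns at 0.03 and Psap at -0.14.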
